A study of Rattus norvegicus with 119 samples.

Results

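The microRNAs (miRNAs) miR-103 and miR-107 were followed through a rat study of insulin-sensitising drugs. Named rno-miR-103 and rno-miR-107 on the array, they are 2 of the 301 miRNAs in the deposited table and were chosen by name, over every treatment, sex and time, by a rule that uses no measured value. The tissue was urothelium, the epithelium that lines the bladder, scraped from the bladders of Sprague-Dawley rats of both sexes. Rats received an oral dose each day of methylcellulose vehicle, pioglitazone at 16 or 63 mg/kg, or rosiglitazone at 10 mg/kg, for 3, 28 or 90 days, and were killed on the day after the last dose. The labels give no age, and the series' design text gives the lower pioglitazone dose as 13 mg/kg. The 4 treatments, 2 sexes and 3 times make 24 groups of separate animals, each animal on its own 1-colour Agilent miRNA array.

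Of 119 arrays, 116 were used, because the labels mark 3 as failing quality control. Each group held 5 arrays except vehicle males at day 28 (n = 4), males on 16 mg/kg pioglitazone at day 28 (n = 4) and females on 16 mg/kg pioglitazone at day 28 (n = 3). All levels are log2 intensities, on which a step of 1 is a doubling. The median of an array over all miRNAs ran from 3.70 to 5.66, with a middle value of 5.39, and 23 of the 116 arrays had a median under 4.5, a limit chosen within a continuous range after the values were seen. The tissue label was checked against epithelial miRNAs. Over all arrays miR-200a had a median level of 13.48 and was never under 10.96, miR-205 had a median of 12.90 and miR-203 of 12.40, against 5.02 for all values in the table, while miR-182 had a median of 6.58. Single arrays went as low as 3.59 for miR-200c, 3.62 for miR-203 and 5.53 for miR-429.

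Thiazolidinediones such as pioglitazone and rosiglitazone are agonists of PPAR gamma, a nuclear receptor that drives adipocyte differentiation and insulin sensitivity. A miRNA guides a silencing complex to messenger RNAs, mainly through its seed, bases 2 to 8 from the 5′ end. miR-103 and miR-107 form one seed family and lie in introns of the genes for pantothenate kinases, the enzymes that start coenzyme A synthesis. In obese mice both are raised in the liver, their silencing improves insulin sensitivity, and caveolin-1, a protein that stabilises the insulin receptor in adipocyte membranes, is a target. These facts are background from other tissues and were not measured here.

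The mature sequences show why the pair is treated as one family. They are given from RefSeq in RNA letters with the seed in capitals.
miR-103-3p: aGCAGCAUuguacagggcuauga
miR-107-3p: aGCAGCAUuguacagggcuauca
They match at 22 of 23 positions and differ by the substitution G22C, with miR-103 as the first base and positions counted from the 5′ end. Among 693 mature rat names in RefSeq these are the only 2 with the seed GCAGCAU. Array probes for sequences this close may each bind some of the other miRNA, and how well these probes separate them is not given in the sources used here.

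Each mature miRNA is cut from a longer hairpin, and the 3 hairpins of the family lie at separate places on the rat assembly GRCr8. They are printed with the mature miRNA in capitals to show that 2 loci yield an identical miR-103.
Mir103a1: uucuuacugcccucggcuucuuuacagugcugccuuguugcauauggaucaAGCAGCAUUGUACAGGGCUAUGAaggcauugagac
Mir103a2: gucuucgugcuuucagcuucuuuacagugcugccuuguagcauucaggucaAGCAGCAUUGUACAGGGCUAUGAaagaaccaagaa
Mir107: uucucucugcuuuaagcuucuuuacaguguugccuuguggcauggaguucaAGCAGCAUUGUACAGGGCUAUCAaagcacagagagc
Mir103a1 lies at chr10:20748474-20748559 on the plus strand, within the span of Pank3 on the same strand. Mir103a2 lies at chr3:138963227-138963312 on the plus strand, within Pank2 on the same strand. Mir107 lies at chr1:241750418-241750504 on the minus strand, within Pank1 on the same strand. The mature sequence occupies bases 52 to 74 of each hairpin. One array value for miR-103 therefore cannot tell its 2 loci apart, and the host genes were not measured by these arrays.

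Both miRNAs were abundant in most animals. Over the 116 arrays miR-103 ran from 3.56 to 11.19 with a median of 10.37, and miR-107 from 3.52 to 11.64 with a median of 10.66. Levels were at or over 9 on 102 arrays for miR-103 and on 96 for miR-107. On a minority of arrays the level was low: 11 arrays had miR-103 under 8, spread over 9 of the 24 groups, 5 of them from vehicle animals and 6 from treated animals. All 11 were among the arrays with a median under 4.5, the highest of their medians being 4.41, and vehicle males at day 28 held 3 of them. On the 93 arrays with a median at or over 4.5, miR-103 kept between 8.47 and 11.19 and miR-107 between 7.60 and 11.64.

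**Figure D1:**
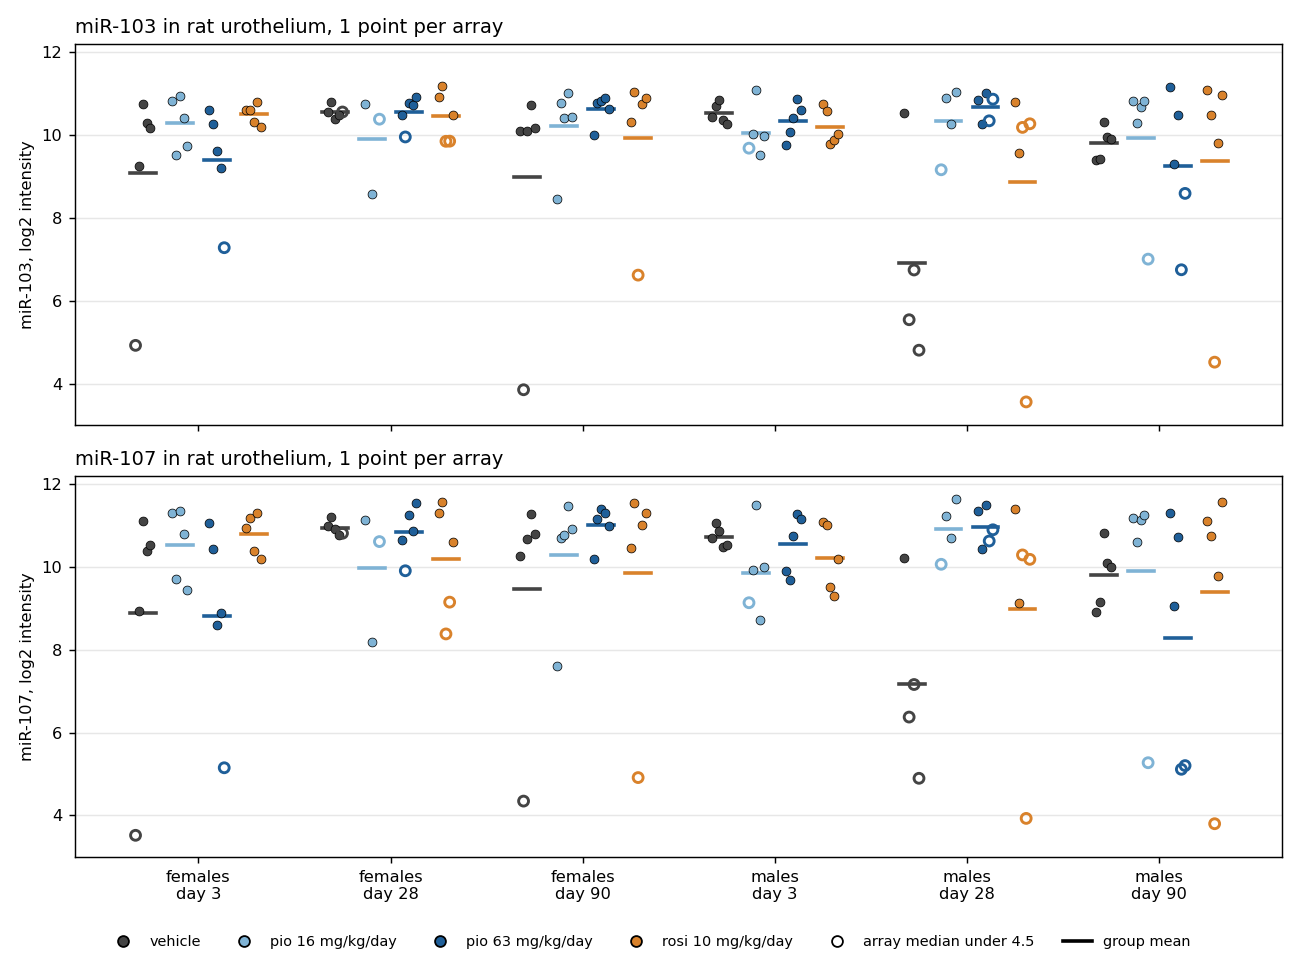
Log2 intensity of miR-103 (upper panel) and miR-107 (lower panel) on each of 116 arrays, by sex, day and treatment (pio, pioglitazone; rosi, rosiglitazone); horizontal bars are group means and open points are arrays with a median under 4.5. Most points lie near 10 to 11, and the vehicle males at day 28 have the lowest mean in both panels, 6.91 and 7.16.

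Ordered by mean, vehicle males at day 28 were the lowest of the 24 groups for both miRNAs. Their mean was 6.91 ± 2.54 (SD, n = 4) for miR-103 and 7.16 ± 2.24 (SD, n = 4) for miR-107. The next lowest group for miR-103 was males on rosiglitazone at day 28, at 8.88 ± 3.00 (SD, n = 5). For miR-107 it was males on 63 mg/kg pioglitazone at day 90, at 8.28 ± 2.97 (SD, n = 5). The highest means were 10.67 ± 0.34 (SD, n = 5) for miR-103, in males on 63 mg/kg pioglitazone at day 28, and 11.00 ± 0.48 (SD, n = 5) for miR-107, in females on 63 mg/kg pioglitazone at day 90. Of the 23 other groups, 21 had a miR-103 mean at or over 9 and 19 had a miR-107 mean at or over 9. None of the 23 gaps between neighbours in either order was larger than the greater SD of the neighbouring groups, so the order describes the means only.

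The comparisons with vehicle asked whether either drug altered the 2 miRNAs in the urothelium of each sex at each time. Both were higher in day-28 males given pioglitazone than in the vehicle males, at either dose, and in no other sex and time. The 4 vehicle males at day 28 had miR-103 levels of 10.53, 5.55, 6.75 and 4.81. The miR-107 levels of these vehicle males were 10.21, 6.37, 7.16 and 4.90, in the same order. The first animal was thus near the level usual elsewhere and the other 3 were well below it, for both miRNAs. The array of this group that failed quality control had 5.02 for miR-103 and 6.06 for miR-107.

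The 5 males on 63 mg/kg pioglitazone at day 28 had miR-103 at 10.85, 10.27, 11.02, 10.35 and 10.87. Their miR-107 levels were 11.35, 10.42, 11.50, 10.62 and 10.89. All 5 exceeded every vehicle male in miR-107, so these groups did not overlap, and 3 of 5 exceeded every vehicle male in miR-103. The groups did not overlap for 8.31% of all miRNAs in this comparison. The mean difference of miR-103 was 3.76 (SE 0.99, 95% interval 1.80 to 5.72, limma adjusted p = 0.00146), and that of miR-107 was 3.80 (SE 1.24, 95% interval 1.34 to 6.25, limma adjusted p = 0.0112). As linear ratios these are 13.5-fold and 13.9-fold. Their SEs, intervals and p-values use a spread pooled over all 24 groups, not that of the groups compared. The SD of miR-103 was 2.54 in these vehicle males and 0.34 at 63 mg/kg, and that of miR-107 was 2.24 and 0.46. In the same comparison 37.2% of the 301 miRNAs passed the threshold of an adjusted p under 0.05, 21.6% of all in the higher direction.

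Males on 16 mg/kg pioglitazone at day 28 had miR-103 at 9.17, 10.90, 10.27 and 11.05. Their miR-107 levels were 10.06, 11.23, 10.70 and 11.64. All 4 animals were above the 3 low vehicle males, and 2 of 4 in miR-103 and 3 of 4 in miR-107 were also above the highest vehicle male. The difference was 3.43 for miR-103 (SE 1.04, limma adjusted p = 0.0185) and 3.75 for miR-107 (SE 1.30, limma adjusted p = 0.0428), and 12.6% of all miRNAs passed, 4.32% as higher. Fitted on these groups alone, neither 16 mg/kg value passed (limma adjusted p = 0.476 for miR-103 and 0.378 for miR-107). Both calls were also lost when any 1 of 6 single arrays was left out, namely the vehicle replicates 3, 4 or 5 or the treated replicates 2, 3 or 4, with adjusted p-values from 0.0506 to 0.33, and with the replicate number as a block the miR-107 value was 3.66 (limma adjusted p = 0.0592).

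Males on rosiglitazone at day 28 had miR-103 at 10.80, 9.56, 10.19, 3.56 and 10.27. Their miR-107 levels were 11.38, 9.12, 10.29, 3.93 and 10.18. A single rosiglitazone male was below every vehicle male and the other 4 were above the 3 low ones, so the groups overlapped. The difference was 1.97 for miR-103 (95% interval 0.01 to 3.93, limma adjusted p = 0.149) and 1.82 for miR-107 (95% interval -0.63 to 4.27, limma adjusted p = 0.329), while 24.6% of all miRNAs passed, 7.31% as higher. Without that rosiglitazone array, replicate 4, both values passed, at 3.30 (limma adjusted p = 0.00385) and 3.08 (limma adjusted p = 0.0473). Without vehicle replicate 1, the miR-103 value passed too, at 3.18 (limma adjusted p = 0.00999). The 3 treated groups were set against the same 4 vehicle males, so their differences are not independent, and rosiglitazone was given at another dose, so the drugs are set side by side and not compared.

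**Figure D2:**
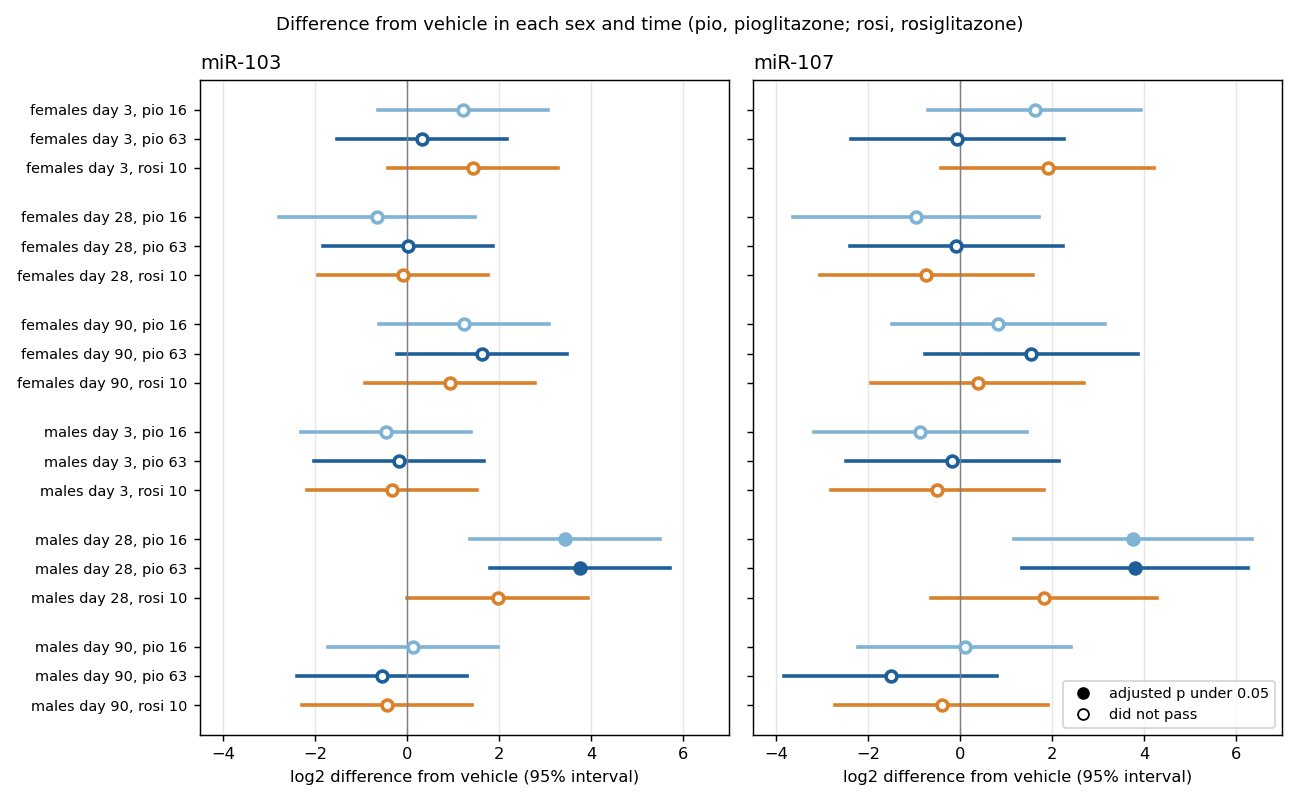
Log2 difference from the vehicle group of the same sex and time for miR-103 (left) and miR-107 (right), with 95% intervals from the limma fit over all 24 groups; filled points passed an adjusted p under 0.05. Only the 4 pioglitazone values of day-28 males are filled, at 3.43 and 3.76 for miR-103 and 3.75 and 3.80 for miR-107.

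The low vehicle males also had low array medians, at 4.07, 4.26 and 4.00 for replicates 3, 4 and 5 against 4.82 for replicate 1. Among treated males at day 28, the arrays of 63 mg/kg replicates 4 and 5 had medians of 4.33 and 3.91 with miR-103 at 10.35 and 10.87, so a low array median did not go with a low miR-103 level on every array. In all, 11 of the 23 arrays with a median under 4.5 had miR-103 at or over 9. Leaving out all arrays with a median under 4.5 kept only replicate 1 of the vehicle males at day 28, whose spread then had to be taken from the other groups. Against that single animal the 63 mg/kg difference was 0.18 for miR-103 (limma adjusted p = 0.921) and 0.88 for miR-107 (limma adjusted p = 0.682), and the 16 mg/kg difference was 0.21 (limma adjusted p = 0.931) and 0.98 (limma adjusted p = 0.623). With the low-median arrays kept, both miRNAs still passed as higher at either dose after each array was centred on its median, and after quantile normalisation. The part of the array median in these differences was not tested beyond these fits and the covariate fit. With the array median as a covariate, miR-107 at 16 mg/kg did not pass, at 2.32 (limma adjusted p = 0.0631), and the other 3 pioglitazone values passed. Without vehicle replicate 5 the miR-107 difference at 63 mg/kg was 3.04 and no longer passed (limma adjusted p = 0.0866), whereas the miR-103 difference passed whichever of the 9 arrays was left out, between 3.06 and 4.97. The median over all miRNAs was itself 0.37 higher in 63 mg/kg males than in vehicle males at day 28, and 0.19 lower once arrays were centred. At 16 mg/kg it was 0.01 higher, and 0.60 lower once centred.

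In the 15 other comparisons with vehicle, no miR-103 or miR-107 value passed by limma, and none had an unadjusted limma p under 0.05. Their miR-103 differences ran from -0.65 to 1.63, with a lowest limma adjusted p of 0.688, and their miR-107 differences from -1.51 to 1.90, with a lowest limma adjusted p of 0.764. From 0% to 3.65% of all miRNAs passed in these comparisons. The typical 95% interval reached 1.85 to either side for miR-103 and 2.31 for miR-107, so changes of a few-fold were within the error. That error was pooled over all 24 groups, so an interval does not reflect the spread of the groups compared, which may be tighter or wider. Day-28 females were the tightest vehicle group, with miR-103 at 10.56 ± 0.15 (SD, n = 5) and miR-107 at 10.93 ± 0.17 (SD, n = 5). In females on 63 mg/kg pioglitazone at that time the levels were 10.57 ± 0.38 (SD, n = 5) and 10.84 ± 0.62 (SD, n = 5), a difference of 0.013 for miR-103 (95% interval -1.83 to 1.86) and -0.091 for miR-107 (95% interval -2.40 to 2.22).

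Averaged over the 6 combinations of sex and time, no treatment moved either miRNA past the threshold, where 0%, 10.6% and 11.3% of all miRNAs passed for 16 mg/kg pioglitazone, 63 mg/kg and rosiglitazone. The mean miR-103 difference was 0.81 for 16 mg/kg pioglitazone (limma adjusted p = 0.505), 0.83 for 63 mg/kg (limma adjusted p = 0.176) and 0.58 for rosiglitazone (limma adjusted p = 0.447). For miR-107 the mean differences were 0.74, 0.58 and 0.41 in the same order (limma adjusted p = 0.651, 0.592 and 0.753).

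Whether day 28 stood apart was tested within each treatment and sex. In vehicle males, day 28 was lower than the mean of days 3 and 90 by 3.25 for miR-103 (SE 0.87, limma adjusted p = 0.00119) and by 3.10 for miR-107 (SE 1.09, limma adjusted p = 0.0127). The vehicle males at day 3 had miR-103 at 10.52 ± 0.24 (SD, n = 5) and at day 90 at 9.80 ± 0.39 (SD, n = 5). Their miR-107 was 10.72 ± 0.24 (SD, n = 5) at day 3 and 9.79 ± 0.77 (SD, n = 5) at day 90. This contrast moved much of the table: 51.8% of all miRNAs passed in it, 35.9% as lower, and the median over all miRNAs was 0.66 lower, or 0.45 higher once arrays were centred. In vehicle males neither miRNA's fall passed with the array median as a covariate, at -1.32 for miR-103 (limma adjusted p = 0.113) and -0.46 for miR-107 (limma adjusted p = 0.65), and without arrays of a median under 4.5 the values were 0.37 (limma adjusted p = 0.706) and -0.048 (limma adjusted p = 0.965). The miR-107 fall was also lost without vehicle replicate 3, at -2.84 (limma adjusted p = 0.0526), or 5, at -2.34 (limma adjusted p = 0.108). With all of these arrays kept, both falls still passed after each array was centred on its median, and after quantile normalisation.

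In males on 63 mg/kg pioglitazone the day-28 level was not lower than at days 3 and 90: the difference was 0.87 for miR-103 and 1.54 for miR-107, and neither passed, nor did any miRNA in that contrast by limma (0%, with 2.99% at an unadjusted p under 0.05). At 16 mg/kg it was 0.35 and 1.03 while 24.6% of all miRNAs passed, and on rosiglitazone -0.91 and -0.83 while 0.332% passed, and none of these 4 values did. None of the 8 values in females passed, where 0% to 6.64% of all miRNAs did. The day-28 male result was therefore a low vehicle group beside pioglitazone groups near the level of other times, as a description of the means.

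The effect of 63 mg/kg pioglitazone in males was larger at day 28 than at days 3 and 90 by 4.12 for miR-103 (SE 1.19, limma adjusted p = 0.00516) and by 4.64 for miR-107 (SE 1.49, limma adjusted p = 0.0111), in a test of the difference itself that 30.9% of all miRNAs passed. The same differences were 3.61 and 4.13 at 16 mg/kg (limma adjusted p = 0.0852 and 0.113, with 1.99% of all miRNAs passing) and 2.34 and 2.27 for rosiglitazone (limma adjusted p = 0.166 and 0.293, with 18.6% passing). In females none of the 6 values passed, where 0% to 0.332% of all miRNAs did. The miR-107 call at 63 mg/kg was lost without vehicle male replicate 5 of day 28, at 3.89 (limma adjusted p = 0.0645). Neither 63 mg/kg call held without arrays of a median under 4.5, at 0.012 for miR-103 (limma adjusted p = 0.993) and 0.69 for miR-107 (limma adjusted p = 0.74).

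The effect of 63 mg/kg pioglitazone at day 28 was larger in males than in females by 3.75 for miR-103 (SE 1.36, limma adjusted p = 0.0300), and by 3.89 for miR-107, which did not pass (SE 1.70, limma adjusted p = 0.0796). In that test of the sex difference 26.6% of all miRNAs passed. At 16 mg/kg the sex differences were 4.09 and 4.70 (limma adjusted p = 0.0714 and 0.0884, with 8.64% passing), and for rosiglitazone 2.06 and 2.56 (limma adjusted p = 0.265 and 0.266, with 22.6% passing). The miR-103 call was lost without vehicle male replicate 3, 4 or 5 or female replicate 2 of the 63 mg/kg group, at values between 3.05 and 3.69. Without arrays of a median under 4.5 it was 0.011 (limma adjusted p = 0.993).

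No difference between the pioglitazone doses passed for either miRNA. In males at day 28, 63 minus 16 mg/kg was 0.32 for miR-103 (95% interval -1.63 to 2.28, limma adjusted p = 0.842) and 0.05 for miR-107 (95% interval -2.40 to 2.50, limma adjusted p = 0.978), with 8.97% of all miRNAs passing. The 12 values of the other 5 combinations and of the mean did not pass either, with 0% to 0.332% of all miRNAs passing. These intervals are wide and do not show that the doses act alike.

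The 2 miRNAs moved together from array to array. Over the 24 group means their Pearson correlation was 0.94, and over the 116 arrays after subtraction of group means it was 0.96, where the median over all miRNAs was 0.22 and 0.23 for miR-103. Arrays share their scaling and their floor, and the 2 miRNAs are nearly identical in sequence, so these are descriptions. The difference miR-107 minus miR-103 within an array compares different probes, so its size has no meaning and only its changes between arrays were read. Over all arrays its median was 0.25, and on arrays with a median at or over 4.5 it was 0.31. In none of the 18 comparisons with vehicle did its change pass in exact permutation tests over arrays (lowest unadjusted two-sided p = 0.0714, lowest Benjamini-Hochberg adjusted p = 0.536, over 18 tests). With these group sizes and adjustment over 18 tests, a change in a single comparison could not have passed, so this says nothing of whether the difference was stable. In males at day 28 the within-array difference was 0.25 ± 0.49 (SD, n = 4) in vehicle and 0.29 ± 0.21 (SD, n = 5) at 63 mg/kg pioglitazone, 0.04 apart (exact permutation p = 0.857, where 0.0079 is the smallest p these group sizes allow).

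On the 23 arrays with a median under 4.5, the difference was read by sex and day. In the 9 such arrays of day-28 males it had a median of 0.28 and a range from -0.10 to 0.90. In the 9 such arrays of days 3 and 90 it had a median of -1.64 and a range from -3.39 to 0.49. In the 5 such arrays of day-28 females it had a median of -0.053 and a range from -1.47 to 0.25. The levels differed too: miR-103 was under 8 on 4 of the 9 male arrays of day 28 and at or over 9 on the other 5, between 9.85 and 10.56 on the 5 female arrays, and under 8 on 7 of the 9 arrays of days 3 and 90. A male on 63 mg/kg pioglitazone at day 90 had miR-103 at 8.59 with miR-107 at 5.20, the widest such gap. The arrays were grouped by their median and by day after the values were seen, so none of this was tested.

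**Figure D3:**
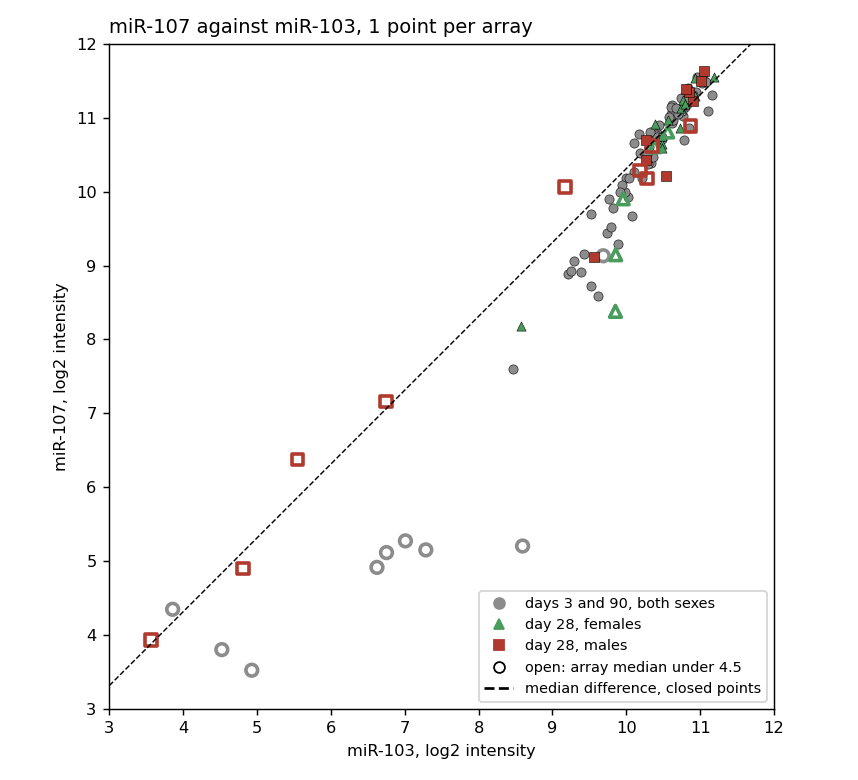
Log2 intensity of miR-107 against miR-103 on each of 116 arrays; squares are day-28 males, triangles day-28 females, circles days 3 and 90, and open symbols are arrays with a median under 4.5. The dashed line marks the median difference of 0.31 on closed points; the 9 open squares have differences from -0.10 to 0.90, most open circles fall below the line, and so do the 5 open triangles and many closed points with miR-103 under 10.

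The miRNAs whose 24 group means were most like those of miR-103, by Pearson correlation, were miR-107 (0.94), miR-26b (0.90), miR-106b (0.88), miR-151 (0.87) and miR-31 (0.86). For miR-107 they were miR-106b (0.94), miR-103 (0.94), miR-322 (0.93), miR-24 (0.92) and miR-19b (0.90). miR-106b belongs to the miR-17 family, which promotes cell cycle entry. Among the 7 miRNAs on these lists other than the family itself, vehicle males at day 28 had the lowest mean of all groups for 6, the exception being miR-24. For miR-26b that mean was 8.02, against 9.89 to 12.24 in the other groups, and for miR-106b it was 5.46, against 6.66 to 9.99. Since a single low group weighs on every such correlation, they carry no test.

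Of the other rat miRNAs, 6 hold AGCAGC within bases 1 to 9, the core shared with miR-103 and miR-107. They are the miR-15 and miR-16 group, known for repressing cyclins and BCL2, and are shown with bases 2 to 8 in capitals, from RefSeq on GRCr8.
miR-15b: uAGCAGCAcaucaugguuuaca
miR-16: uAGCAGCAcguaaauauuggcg
miR-195: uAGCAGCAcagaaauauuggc
miR-497: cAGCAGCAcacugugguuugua
miR-322: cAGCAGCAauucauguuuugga
miR-503: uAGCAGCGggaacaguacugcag
Their AGCAGC starts at base 2, and in miR-103 and miR-107 at base 1, so the seeds are shifted by 1 base. miR-15b and miR-16 lie together on chromosome 2, miR-195 and miR-497 on chromosome 10, and miR-322 and miR-503 on chromosome X.

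In day-28 males on 63 mg/kg pioglitazone, 5 of these 6 were higher than in vehicle, beside 21.6% of all miRNAs, and the 6 had a median difference of 3.10 beside 0.37 over all miRNAs. The vehicle side was the same 4 males, 3 of them with an array median under 4.5. The highest vehicle level was 8.29 for miR-15b and 8.87 for miR-322, beside lowest levels of 8.52 and 8.70 at 63 mg/kg. The 6 were read in the main fit only, with no arrays left out, so their count is a description. miR-322 was higher by 4.94 (SE 1.32, limma adjusted p = 0.00175), miR-15b by 4.59 (SE 1.31, limma adjusted p = 0.00372) and miR-195 by 3.75 (SE 1.22, limma adjusted p = 0.0108). miR-497 was higher by 2.45 (SE 0.96, limma adjusted p = 0.0364) and miR-503 by 2.11 (SE 0.88, limma adjusted p = 0.0498). Vehicle levels of all 5 came close to the lowest value in the table, 2.69. The lowest were 3.415 for miR-322, 3.11 for miR-15b, 3.13 for miR-195, 3.39 for miR-497 and 2.89 for miR-503. No detection calls were used here, so the size of these differences is that on the deposited scale, from vehicle levels that may not be above background. miR-16 was the member that did not pass: its level was 11.46 ± 0.40 (SD, n = 4) in vehicle and 11.96 ± 0.22 (SD, n = 5) at 63 mg/kg, a difference of 0.50 (limma adjusted p = 0.707). On the 4 vehicle arrays, where miR-103 was as low as 4.81, miR-16 was between 11.06 and 11.92, but on rosiglitazone replicate 4 both were low, miR-16 at 3.68 and miR-103 at 3.56. At 16 mg/kg only miR-322 passed, at 4.08 (SE 1.39, limma adjusted p = 0.0379), beside 12.6% of all miRNAs, 4.32% as higher. On rosiglitazone none of the 6 passed, beside 24.6% of all miRNAs, 7.31% as higher. In the other 15 comparisons none of the 90 values passed, where 0% to 3.65% of all miRNAs did. In vehicle males, day 28 was lower than days 3 and 90 for 4 of the 6, miR-15b, miR-195, miR-322 and miR-497, by 3.58 to 4.68 on the log2 scale, beside 35.9% of all miRNAs, and miR-16 (-1.11, limma adjusted p = 0.246) and miR-503 (-1.09, limma adjusted p = 0.228) did not pass.

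**Figure D4:**
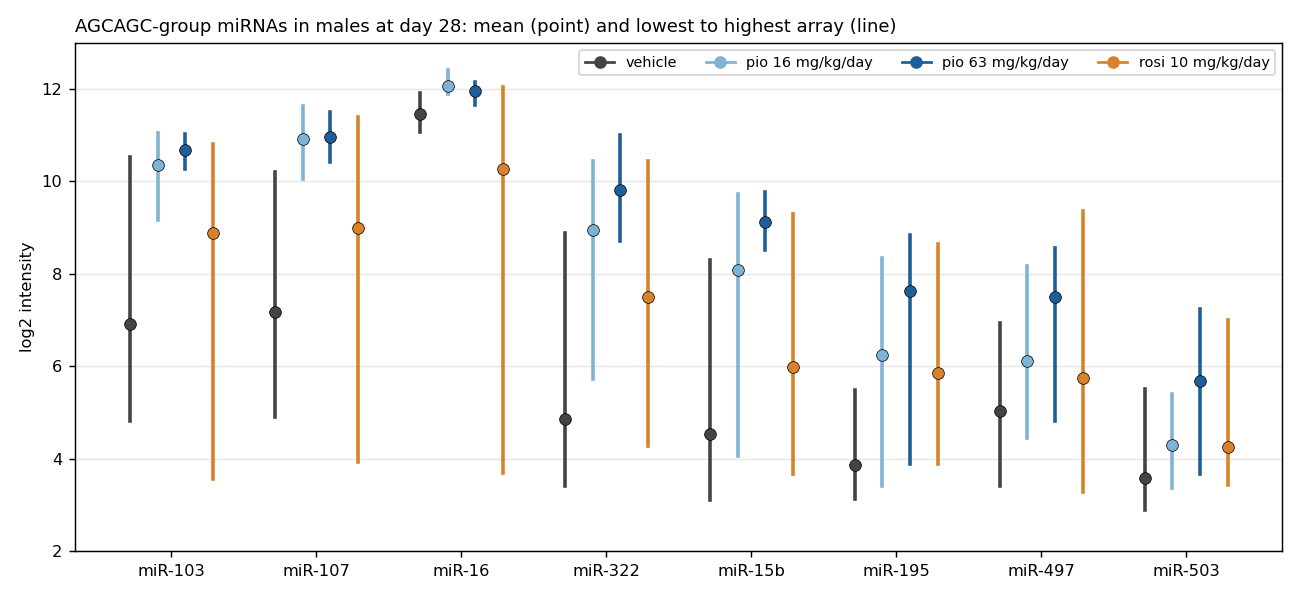
Log2 intensity of miR-103, miR-107 and the 6 miRNAs that share AGCAGC, in males at day 28; points are group means (n = 4 for vehicle and 16 mg/kg pioglitazone, n = 5 for the others) and lines run from the lowest to the highest array. Vehicle means are the lowest of the 4 treatments for every miRNA but miR-16, whose lowest mean, on rosiglitazone, includes 1 array at 3.68.

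A list of 32 other miRNAs with known roles in insulin signalling or fat cells, 30 of them measured, was read beside the pair. In day-28 males on 63 mg/kg pioglitazone 7 of 30 were higher and 1 lower, with a median difference of 0.70 beside 0.37 over all miRNAs, of which 21.6% were higher and 15.6% lower. The higher ones included miR-126 (3.90), best known from endothelium, miR-26b (3.80), which promotes adipocyte differentiation, and miR-30b-5p (3.50), while miR-181b was lower (-3.05). At 16 mg/kg 2 were higher, miR-126 (2.95) and miR-221 (2.30), and miR-181b was lower (-2.46), beside 4.32% higher and 8.31% lower of all miRNAs. On rosiglitazone 2 were higher, miR-126 (3.86) and miR-223 (2.53), and 2 were lower, miR-181b (-3.41) and miR-34a (-1.69), with a median of -0.27 beside 0.16 over all miRNAs, of which 7.31% were higher and 17.3% lower. In vehicle males, day 28 against days 3 and 90 gave 1 higher and 12 lower of 30, beside 15.9% higher and 35.9% lower of all miRNAs. These counts are given as descriptions and nothing particular to the list is read from them.

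Marker miRNAs of other cell types moved in the same comparisons. At 63 mg/kg in day-28 males, 4 of 7 fibroblast and mesenchymal markers, 2 of 2 red blood cell markers, 2 of 4 leukocyte markers, 1 of 2 endothelial markers, 1 of 6 muscle markers and 2 of 10 epithelial markers were higher than in vehicle, beside 21.6% of all miRNAs, and none was lower. At 16 mg/kg 1 of 2 endothelial and 1 of 10 epithelial markers were higher, beside 4.32% of all miRNAs. On rosiglitazone 1 of 2 endothelial and 1 of 4 leukocyte markers were higher, beside 7.31% of all miRNAs. The mean level over the fibroblast list ran from 6.06 to 7.01 in vehicle arrays and from 6.37 to 8.73 at 63 mg/kg. Over the leukocyte list it ran from 4.5 to 5.40 and from 5.17 to 6.67, over the red blood cell list from 3.54 to 6.22 and from 6.31 to 9.95, and over the endothelial list from 3.84 to 6.59 and from 6.19 to 8.14. The muscle list ran from 3.51 to 8.16 and from 4.46 to 9.72, and the epithelial list, at 9.71 to 11.39 and 10.30 to 11.65, stayed high in both groups. In vehicle males at day 28 against days 3 and 90, 5 of 7 fibroblast, 2 of 2 endothelial, 2 of 2 red blood cell, 3 of 4 leukocyte, 3 of 6 muscle and 1 of 10 epithelial markers were lower, beside 35.9% of all miRNAs. The part of other cell types in the miR-103 and miR-107 differences was not tested, and fewer cells of a type and less RNA per cell cannot be told apart in scraped tissue. The vehicle arrays of day-28 males also had low medians, under 4.5 on 3 of 4. The part of the array median in the marker levels was not tested.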

How the data were processed

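Per the labels' protocols, Cy3-labelled RNA from scraped urothelium was hybridised to 1-colour Agilent miRNA arrays. The deposited table holds log2 values for 301 miRNAs on 119 arrays. RMA and limma, with no version or role, are the tools listed per the submitters' processing notes. The sources used here do not give the background method, the summary of probes or any detection calls; array medians differ, so quantiles were not equal in the table as deposited. Groups came from the labels, and the 3 arrays marked as failing quality control were left out.

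The log2 values were fitted with limma 3.58.1 in R 4.3.3, with 1 mean per group over 24 groups (92 residual and 2.33 prior degrees of freedom). Tests were two-sided with Benjamini-Hochberg adjustment over 301 miRNAs within each of 45 contrasts, and the threshold was 0.05. SEs use a variance per miRNA that is pooled over every group and moderated. The within-array difference was tested by exact permutation over arrays.

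The rule names the 2 members and uses no measured value, but the pair was proposed, and the miRNA lists and tests chosen, with earlier results of these data known. The miRNAs named are the 2 members, the 5 most correlated with each, the AGCAGC group and up to 4 of each list per comparison; list members were matched by array name. The alternatives were other array scalings, the failed arrays, array weights, another variance model, a filter on dim miRNAs, fewer groups, a replicate block and single arrays left out; leaving out low-median arrays was added after the data were seen. Sequences and positions are from RefSeq on GRCr8, matched by miRNA name for both members and for the 6 relatives. The number of arrays and the floor near the lowest values limit the precision.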

Additional observations from a re-analysis of the deposited data

Results flagged for a closer look

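In 13 of 46 sets of 4 or 5 arrays that were examined, 1 array stood far from the rest by Dixon's criterion, which chance meets in about 1 of 20. Each such group entered once for each of the 2 miRNAs, which moved together, so the 46 sets are not independent. Every one of the arrays that stood apart was the lowest of its group. For miR-103 they were the rosiglitazone males' replicate 4 at day 28 (3.56) and replicate 3 at day 90 (4.52), vehicle females' replicate 2 at day 90 (3.86) and replicate 1 at day 3 (4.93), rosiglitazone females' replicate 3 at day 90 (6.62), and 16 mg/kg pioglitazone replicate 5 of males (7.01) and replicate 1 of females (8.47) at day 90. For miR-107, 6 of the same arrays stood apart, at 3.80 (rosiglitazone male, day 90), 4.35 (vehicle female, day 90), 3.52 (vehicle female, day 3), 4.91 (rosiglitazone female, day 90), 5.27 (pioglitazone male, day 90) and 7.60 (pioglitazone female, day 90).

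The effect of 63 mg/kg pioglitazone in males differed between day 28 and days 3 and 90 by 4.12 for miR-103 and 4.64 for miR-107, and between the sexes at day 28 by 3.75 for miR-103. These tests of differences passed the threshold, and all rest on the 4 vehicle males of day 28.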

How the results depend on the processing

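Over all alternatives other than leaving out single arrays, the member values that passed kept their direction and their side of the threshold in 74 of 90 instances, lost the call in 15 and changed sign in 1. Values that had not passed kept both in 480 of 556 instances, passed in 27 and changed sign in 49. The trended and robust variance model changed no value by these criteria. The causes of the changes below were not tested, except that fewer miRNAs, groups or arrays enter where the alternative says so. Values are log2 differences from vehicle unless named otherwise, and the day-28 change in effect and the sex difference are the tests of differences given above.

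With array medians as a covariate, the miR-103 value no longer passed for day 28 against days 3 and 90 in vehicle males (-1.32, adjusted p = 0.113). With array medians as a covariate, these miR-107 values no longer passed: 16 mg/kg pioglitazone in males at day 28 (2.32, adjusted p = 0.0631) and day 28 against days 3 and 90 in vehicle males (-0.46, adjusted p = 0.65). With array medians as a covariate, the miR-103 value newly passed for the mean effect of 63 mg/kg pioglitazone (0.78, adjusted p = 0.0426). With array medians as a covariate, these miR-103 values changed sign: 16 mg/kg pioglitazone in males at day 3 (0.023), 63 mg/kg pioglitazone in males at day 90 (0.46), rosiglitazone in females at day 28 (0.42), rosiglitazone in males at day 3 (0.28), rosiglitazone in males at day 90 (0.11) and day 28 against days 3 and 90 in males on rosiglitazone (0.12). With array medians as a covariate, these miR-107 values changed sign: 63 mg/kg pioglitazone in females at day 28 (0.18), rosiglitazone in males at day 3 (0.31), rosiglitazone in males at day 90 (0.32) and day 28 against days 3 and 90 in males on rosiglitazone (0.58). With array quality weights, these miR-103 values newly passed: 16 mg/kg pioglitazone in males at day 90 (0.90), rosiglitazone in males at day 28 (4.34), the mean effect of 16 mg/kg pioglitazone (1.01), the mean effect of 63 mg/kg pioglitazone (0.85), the mean effect of rosiglitazone (1.06), the day-28 change in effect of 16 mg/kg pioglitazone in males (4.73), the day-28 change in effect of rosiglitazone in males (4.00), the sex difference of 16 mg/kg pioglitazone (5.36) and the sex difference of rosiglitazone (4.04). With array quality weights, these miR-107 values newly passed: 16 mg/kg pioglitazone in males at day 90 (1.30), rosiglitazone in males at day 28 (3.88), the mean effect of 16 mg/kg pioglitazone (0.97), the mean effect of 63 mg/kg pioglitazone (0.64), the mean effect of rosiglitazone (0.99), the day-28 change in effect of 16 mg/kg pioglitazone in males (4.61), the day-28 change in effect of rosiglitazone in males (3.44), the sex difference of 16 mg/kg pioglitazone (5.44), the sex difference of 63 mg/kg pioglitazone (4.42) and the sex difference of rosiglitazone (3.73). With array quality weights, these miR-103 values changed sign: 63 mg/kg pioglitazone in females at day 3 (-0.28), rosiglitazone in females at day 28 (0.31), rosiglitazone in males at day 90 (0.82) and the dose difference in males at day 28 (-0.21). With array quality weights, these miR-107 values changed sign: 63 mg/kg pioglitazone in females at day 28 (0.13), 63 mg/kg pioglitazone in males at day 3 (0.025), rosiglitazone in females at day 28 (0.15), rosiglitazone in males at day 90 (1.07) and the dose difference in males at day 28 (-0.37). With each array centred on its median, these miR-103 values changed sign: 63 mg/kg pioglitazone in males at day 90 (0.032), rosiglitazone in females at day 28 (0.20) and rosiglitazone in males at day 3 (0.028). With each array centred on its median, the miR-107 value changed sign for 63 mg/kg pioglitazone in females at day 28 (0.024). In the mean over 5 combinations without males at day 28, the miR-107 value changed sign for the mean effect of 63 mg/kg pioglitazone (-0.062). With only the brighter miRNAs tested, the miR-107 value no longer passed for 16 mg/kg pioglitazone in males at day 28 (3.75, adjusted p = 0.0503). With only the compared groups in the fit, the miR-103 value no longer passed for 16 mg/kg pioglitazone in males at day 28 (3.43, adjusted p = 0.476). With only the compared groups in the fit, the miR-107 value no longer passed for 16 mg/kg pioglitazone in males at day 28 (3.75, adjusted p = 0.378). With only the compared groups in the fit, the miR-107 value newly passed for the sex difference of 63 mg/kg pioglitazone (3.89, adjusted p = 0.0202). After quantile normalisation, the miR-103 value newly passed for the sex difference of 16 mg/kg pioglitazone (3.83, adjusted p = 0.0213). After quantile normalisation, these miR-107 values newly passed: the sex difference of 16 mg/kg pioglitazone (4.44, adjusted p = 0.0366) and the sex difference of 63 mg/kg pioglitazone (3.34, adjusted p = 0.0471). After quantile normalisation, these miR-103 values changed sign: 63 mg/kg pioglitazone in females at day 3 (-0.18), 63 mg/kg pioglitazone in females at day 28 (-0.15), rosiglitazone in males at day 90 (0.17) and the dose difference in males at day 28 (-0.052). After quantile normalisation, these miR-107 values changed sign: 63 mg/kg pioglitazone in females at day 3 (0.0103) and the dose difference in males at day 28 (-0.23). With the replicate number as a block, the miR-107 value no longer passed for 16 mg/kg pioglitazone in males at day 28 (3.66, adjusted p = 0.0592). With the 3 arrays that failed quality control kept, these miR-103 values newly passed: the day-28 change in effect of 16 mg/kg pioglitazone in males (3.98, adjusted p = 0.0439) and the sex difference of 16 mg/kg pioglitazone (5.45, adjusted p = 0.00202). With the 3 arrays that failed quality control kept, the miR-107 value newly passed for the sex difference of 16 mg/kg pioglitazone (5.82, adjusted p = 0.00659). Without the arrays of a median under 4.5, these miR-103 values no longer passed: 16 mg/kg pioglitazone in males at day 28 (0.21, adjusted p = 0.931), 63 mg/kg pioglitazone in males at day 28 (0.18, adjusted p = 0.921), the day-28 change in effect of 63 mg/kg pioglitazone in males (0.012, adjusted p = 0.993) and the sex difference of 63 mg/kg pioglitazone (0.011, adjusted p = 0.993). Without the arrays of a median under 4.5, these miR-107 values no longer passed: 16 mg/kg pioglitazone in males at day 28 (0.98, adjusted p = 0.623), 63 mg/kg pioglitazone in males at day 28 (0.88, adjusted p = 0.682), day 28 against days 3 and 90 in vehicle males (-0.048, adjusted p = 0.965) and the day-28 change in effect of 63 mg/kg pioglitazone in males (0.69, adjusted p = 0.74). Without the arrays of a median under 4.5, these miR-103 values changed sign: 16 mg/kg pioglitazone in females at day 90 (-0.054), 63 mg/kg pioglitazone in females at day 3 (-0.19), 63 mg/kg pioglitazone in males at day 90 (0.51), rosiglitazone in females at day 28 (0.31), rosiglitazone in males at day 28 (-0.35), rosiglitazone in males at day 90 (0.79), the mean effect of 16 mg/kg pioglitazone (-0.016), day 28 against days 3 and 90 in vehicle males (0.37), the day-28 change in effect of 16 mg/kg pioglitazone in males (-0.035), the day-28 change in effect of rosiglitazone in males (-0.59), the sex difference of rosiglitazone (-0.66) and the dose difference in males at day 28 (-0.028). Without the arrays of a median under 4.5, these miR-107 values changed sign: 16 mg/kg pioglitazone in females at day 90 (-0.45), 63 mg/kg pioglitazone in females at day 28 (0.11), 63 mg/kg pioglitazone in males at day 90 (0.57), rosiglitazone in females at day 28 (0.19), rosiglitazone in males at day 90 (0.998), the day-28 change in effect of rosiglitazone in males (-0.21), the sex difference of rosiglitazone (-0.14) and the dose difference in males at day 28 (-0.099).

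Counts of miRNAs past the threshold over the whole table also moved. For day 28 against days 3 and 90 in vehicle males the count of 156 became 94 with the covariate, 82 with only the brighter miRNAs and 35 without the arrays of a median under 4.5. For day-28 males, the counts of 38 at 16 mg/kg pioglitazone, 112 at 63 mg/kg and 74 on rosiglitazone became 136, 181 and 147 with array weights, 10, 72 and 22 with only the brighter miRNAs and 66, 15 and 3 without the arrays of a median under 4.5. With only the compared groups in the fit, the 16 mg/kg and rosiglitazone counts were both 0 by limma, with 25 and 70 at an unadjusted p under 0.05. With array weights, in which vehicle male replicate 1 of day 28 had the lowest weight, 0.034, 1 of 12 other dose values passed. With the failed arrays kept, the 63 mg/kg effect in day-28 males on miR-107 minus miR-103 was -0.12. Same-numbered animals did not deviate together (mean correlation of residuals -0.0086, against 0.012 for other numbers), and 12 of 116 arrays correlated best with their own number. No pairing by number was thus seen in these values, which cannot show how the numbers were assigned. The replicate block changed no other call.

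Leaving out 1 array at a time, the miR-103 values that changed call or sign ran from -0.013 to 0.75 for day 28 against days 3 and 90 in males on 16 mg/kg pioglitazone, -1.52 to 0.41 for day 28 against days 3 and 90 in males on rosiglitazone, 2.91 to 4.81 for the day-28 change in effect of 16 mg/kg pioglitazone in males, 1.64 to 3.67 for the day-28 change in effect of rosiglitazone in males, 3.39 to 5.30 for the sex difference of 16 mg/kg pioglitazone, 3.05 to 4.95 for the sex difference of 63 mg/kg pioglitazone, 1.36 to 3.39 for the sex difference of rosiglitazone, -1.07 to 0.0064 for 16 mg/kg pioglitazone in females at day 28, -0.054 to 1.67 for 16 mg/kg pioglitazone in females at day 90, 2.74 to 4.64 for 16 mg/kg pioglitazone in males at day 28, -0.10 to 0.85 for 16 mg/kg pioglitazone in males at day 90, -0.076 to 0.17 for 63 mg/kg pioglitazone in females at day 28, -0.72 to 0.85 for 63 mg/kg pioglitazone in females at day 3, -1.02 to 0.0803 for 63 mg/kg pioglitazone in males at day 90, -0.28 to 0.057 for rosiglitazone in females at day 28, -0.35 to 1.76 for rosiglitazone in females at day 90, 1.27 to 3.30 for rosiglitazone in males at day 28, -0.86 to 0.79 for rosiglitazone in males at day 90, 0.62 to 1.03 for the mean effect of 63 mg/kg pioglitazone, -0.069 to 0.56 for the dose difference in males at day 28. Those of miR-107 ran from -1.53 to 0.44 for day 28 against days 3 and 90 in males on rosiglitazone, -4.11 to -2.34 for day 28 against days 3 and 90 in vehicle males, 3.38 to 5.15 for the day-28 change in effect of 16 mg/kg pioglitazone in males, 3.89 to 5.66 for the day-28 change in effect of 63 mg/kg pioglitazone in males, 3.80 to 5.72 for the sex difference of 16 mg/kg pioglitazone, 3.13 to 4.90 for the sex difference of 63 mg/kg pioglitazone, -0.45 to 1.497 for 16 mg/kg pioglitazone in females at day 90, 2.99 to 4.76 for 16 mg/kg pioglitazone in males at day 28, -0.25 to 1.25 for 16 mg/kg pioglitazone in males at day 90, -0.27 to 0.14 for 63 mg/kg pioglitazone in females at day 28, -1.41 to 0.85 for 63 mg/kg pioglitazone in females at day 3, 3.04 to 4.81 for 63 mg/kg pioglitazone in males at day 28, -0.36 to 0.041 for 63 mg/kg pioglitazone in males at day 3, -0.90 to 1.61 for rosiglitazone in females at day 90, 1.06 to 3.08 for rosiglitazone in males at day 28, -0.94 to 1.0 for rosiglitazone in males at day 90, -0.23 to 0.29 for the dose difference in males at day 28. The count of miRNAs past the threshold in day-28 males then ran from 0 (without vehicle replicate 3, with 46 at an unadjusted limma p under 0.05) to 79 at 16 mg/kg and from 68 to 136 at 63 mg/kg.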
